A study of Mus musculus with 8 samples.

Results

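Of the 55414 genes in a count table of mouse cardiac fibroblasts, 10 genes of WNT signalling are described here, chosen by name and found by symbol. They are the ligands Wnt5a (ENSMUSG00000021994), Wnt5b (ENSMUSG00000030170) and Wnt9a (ENSMUSG00000000126), the antagonists Sfrp1 (ENSMUSG00000031548), Sfrp2 (ENSMUSG00000027996), Dkk2 (ENSMUSG00000028031), Dkk3 (ENSMUSG00000030772) and Wif1 (ENSMUSG00000020218), and the target genes Axin2 (ENSMUSG00000000142) and Ccn4 (ENSMUSG00000005124). Ccn4 is also known as Wisp1. All 10 passed the filter on low counts, which 15150 genes passed in all. WNT proteins are secreted, lipid-bearing ligands that bind Frizzled receptors on neighbouring cells. In the canonical branch the co-receptors Lrp5 and Lrp6 join the complex, beta-catenin escapes destruction and TCF/LEF factors switch on target genes, whereas in the non-canonical branches receptors such as Ror2 act on the cytoskeleton and cell polarity. Secreted antagonists limit WNT signalling outside the cell, and in the injured heart WNT signals are known to act on fibroblasts and scar formation.

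The study asked what changes when mouse cardiac fibroblasts are forced to make hyaluronan synthase 2. Cultures in the first group received an adenovirus carrying Has2 and those in the second an adenovirus carrying GFP, 4 libraries each, as replicates 1 and 2 from females and 3 and 4 from males. The strain was C57BL/6J and the genotype is given as wild type in the sample labels, whereas the protocol names mice homozygous for a floxed Has2 gene and, besides these viruses, 1 carrying Cre that is not used here. Cells of both groups were at passage 2, starved of serum for 24 h, exposed to virus for 5 h and then kept for 48 h with 20 ng/mL of TGF-beta and basic FGF, so every value below comes from growth factor-stimulated cells. Library names pair each Has2 culture with the GFP culture of its number through a shared preparation identifier. The identifiers of female and male cultures begin with different letters, so sex cannot be told apart from the series of preparations. The labels do not say whether each preparation came from a separate animal, so p-values measure the spread between these samples, which may be technical.

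Total counts ran from 46981231 to 55795187 per library. Has2 itself was measured at 9533, 8406, 3209 and 4860 CPM (counts scaled by the effective size of each library) in Has2 replicates 1 to 4, against 25.2, 7.36, 18.3 and 21.3 CPM in GFP replicates 1 to 4, so the labels and the overexpressed gene go together (log2 fold change 8.46, SE 0.55, edgeR adjusted p = 0.0226; two-sided exact permutation p = 0.0286, the smallest that 4 libraries against 4 can give). Permuted within the 4 pairs, the exact p was 0.125, the smallest that 4 pairs can give. The edgeR call for Has2 was lost without replicate 1 (adjusted p = 0.0844) and when scaled by library totals (adjusted p = 0.0538). Fibroblast markers summed to 25758 to 39649 CPM in the Has2 and 25316 to 39004 CPM in the GFP libraries. Macrophage markers, of which 10 of 10 were detected, summed to 852 to 2304 CPM in the Has2 and 894 to 2200.5 CPM in the GFP libraries. Endothelial markers summed to 31.0 to 52.7 CPM in the Has2 and 34.4 to 54.4 CPM in the GFP libraries, and 0 of the markers in these lists were called for the virus. Liver transcripts such as albumin summed to 643 CPM in GFP replicate 1 and to at most 2.52 CPM in every other library.

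The sequences of Wnt5a and Wnt5b are shown to let a reader judge how far the 2 paralogous ligands can be told apart in the counts, which was not tested. Their coding sequences are 77.8% identical over 1111 aligned bases. The stretch of 120 bases with the highest identity runs over coding bases 436 to 555 of Wnt5a (chromosome 14) and 412 to 531 of Wnt5b (chromosome 6), in GENCODE M21 transcripts, with capitals at the 13 positions where the paralogues differ.
Wnt5a: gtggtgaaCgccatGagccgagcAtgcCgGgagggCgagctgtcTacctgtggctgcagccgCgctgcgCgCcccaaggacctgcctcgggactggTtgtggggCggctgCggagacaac
Wnt5b: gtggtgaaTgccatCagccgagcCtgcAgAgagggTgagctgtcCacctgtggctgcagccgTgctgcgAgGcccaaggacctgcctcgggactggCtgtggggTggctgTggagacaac
Of the 13 differences 10 fall on the third codon position, and the longest run of identical bases anywhere in the longest transcripts is 29. Read length is not given in the sources used here. The longest shared runs were 17 bases for Sfrp1 and Sfrp2 and 11 bases for Dkk2 and Dkk3. In the stretch shown GC content was 70.0% for Wnt5a and 65.8% for Wnt5b, the reverse of the order over whole transcripts. GC content of the longest transcript was 60.0% for Wnt5b, the highest of the 10 genes, and 46.7% for Wnt5a, with Dkk2 (45.7%) and Ccn4 (46.2%) lower still.

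Per transcript length, the panel was dominated by Sfrp1, which sequesters WNT ligands outside the cell. Its level averaged 212 CPM per kb over the 8 libraries (117 to 438) and made up 70.7% to 85.7% of the summed level of the 10 genes in the Has2 libraries and 68.1% to 81.6% in the GFP libraries. Dkk3, a divergent Dickkopf protein whose action on WNT receptors is less settled than that of its relatives, followed at 48.8 CPM per kb (33.9 to 57.3), and its range did not overlap that of Sfrp1. Ccn4 (3.48 CPM per kb), Wnt5a (3.48), Dkk2 (3.33) and Wnt9a (1.91) came next, each with a range that overlapped that of its neighbour in this order. Wnt5b lay lower again at 0.824 CPM per kb, and its range ended below that of Wnt9a. Sfrp2 (0.517 CPM per kb), Wif1 (0.453) and Axin2 (0.274) closed the order, and from Wnt5b to Axin2 neighbouring ranges overlapped. Wnt5a, which is known mainly for non-canonical signalling, thus had the highest mean of the 3 ligands, and Axin2, a common readout of beta-catenin activity, the lowest of the 10 genes.

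**Figure D1:**
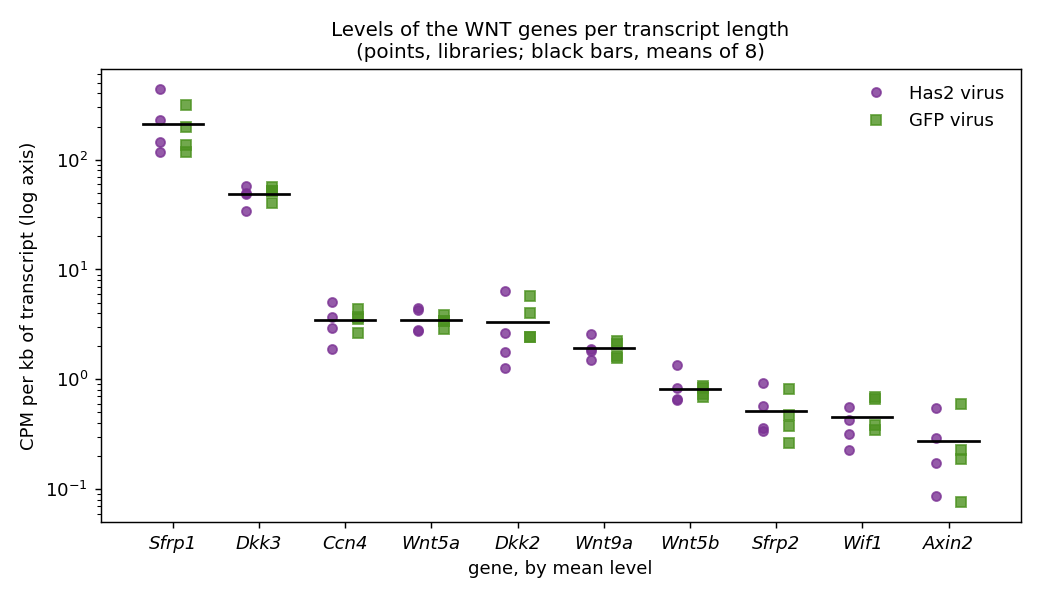
Level of each gene in CPM per kb of its longest transcript (log axis), with Has2 libraries as circles on the left and GFP libraries as squares on the right of each position, and black bars at the mean of 8 libraries. Sfrp1 averaged 212 and Dkk3 48.8 CPM per kb, and no other gene of the panel had a mean above 3.48.

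None of the 10 genes passed the test for a response to the Has2 virus, paired by replicate number (edgeR's quasi-likelihood test, adjusted p under 0.05 over all genes). By this rule 0.0066% of the 15150 genes were called, which is Has2 alone. DESeq2 and limma-voom with the same pairing also called 0 of the 10, and the unadjusted edgeR p was under 0.05 for Dkk2 alone, a rule that 7.49% of all genes met, 4.91% with a lower value. The median log2 fold change of the 10 genes was 0.05, against -0.02 over all genes tested. The Has2 and GFP ranges overlapped for 10 of 10 genes, but the share of all genes with such overlap was not computed. That count is therefore no result about the panel. In bulk RNA, fewer cells of a type and less RNA per cell cannot be told apart in any of these values.

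Among the ligands, Wnt5a was measured at 29.7, 31.5, 19.8 and 19.3 CPM in Has2 replicates 1 to 4, against 26.8, 23.9, 20.2 and 23.6 CPM in GFP replicates 1 to 4. The female cultures were higher with the Has2 virus and the male cultures were not, so the paired log2 fold change came to 0.06 (SE 0.13; 95% interval -0.26 to 0.37). Wnt5b stood at 1.56, 1.54, 3.18 and 1.99 CPM in the Has2 libraries, against 1.96, 1.73, 2.04 and 1.62 CPM in the GFP libraries. It ran the other way, lower with the Has2 virus in the female pairs and higher in the male pairs (log2 fold change 0.12, SE 0.21). Wnt9a, a ligand with a known part in joint formation, was at 6.06, 8.52, 6.26 and 4.97 CPM in the Has2 libraries, against 7.04, 7.38, 5.18 and 5.40 CPM in the GFP libraries. Its pairs went both ways, with a log2 fold change of 0.04 (SE 0.14; -0.29 to 0.36). On the strand opposite Wnt5b lies Fbxl14, whose gene bounds overlap those of Wnt5b, at 17.0 to 40.3 CPM in the Has2 and 18.3 to 37.2 CPM in the GFP libraries. The strand setting of the counting is not known, and whether reads of Fbxl14 entered the Wnt5b counts was not tested.

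Among the antagonists, Sfrp1 was measured at 1013, 1914, 632 and 513 CPM in Has2 replicates 1 to 4, against 861, 1364, 596 and 515 CPM in GFP replicates 1 to 4. Replicate 2 was highest with either virus, and 3 of 4 pairs were higher with the Has2 virus (log2 fold change 0.20, SE 0.11; 95% interval -0.06 to 0.47; edgeR adjusted p = 0.653). Sfrp2, a relative of Sfrp1 that also binds WNT ligands, stood at 1.15, 1.87, 0.724 and 0.672 CPM in the Has2 libraries, against 1.65, 0.942, 0.526 and 0.752 CPM in the GFP libraries. Its pairs went both ways, and with 26 to 91 counts per library the log2 fold change of 0.18 had an SE of 0.29. Dkk3 stood at 162, 193, 167 and 114 CPM in the Has2 libraries, against 175, 191, 176 and 135 CPM in the GFP libraries. Its largest shift within a pair was 0.24 on the log2 scale, the smallest such maximum among the 10 genes, and the fitted log2 fold change came to -0.10 (SE 0.09; -0.31 to 0.10).

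Dkk2, which binds Lrp5 and Lrp6, was measured at 23.7, 6.59, 4.70 and 9.73 CPM in Has2 replicates 1 to 4, against 21.3, 8.92, 9.09 and 14.8 CPM in GFP replicates 1 to 4. It was lower with the Has2 virus in replicates 2, 3 and 4 and slightly higher in replicate 1 (log2 fold change -0.45, SE 0.19; edgeR unadjusted p = 0.0457, adjusted p = 0.648). Wif1, which binds WNT ligands through its own WIF domain, stood at 1.29, 0.985, 0.520 and 0.733 CPM in the Has2 libraries, against 1.52, 1.58, 0.891 and 0.791 CPM in the GFP libraries. It was lower in all 4 pairs, as were 7.96% of all genes tested, and no gene of the panel was higher in all 4, as 9.16% of all genes were. The fitted value for Wif1 came to -0.44 on the log2 scale (SE 0.20; -0.92 to 0.03; edgeR adjusted p = 0.648) on 28 to 72 counts per library.

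**Figure D2:**
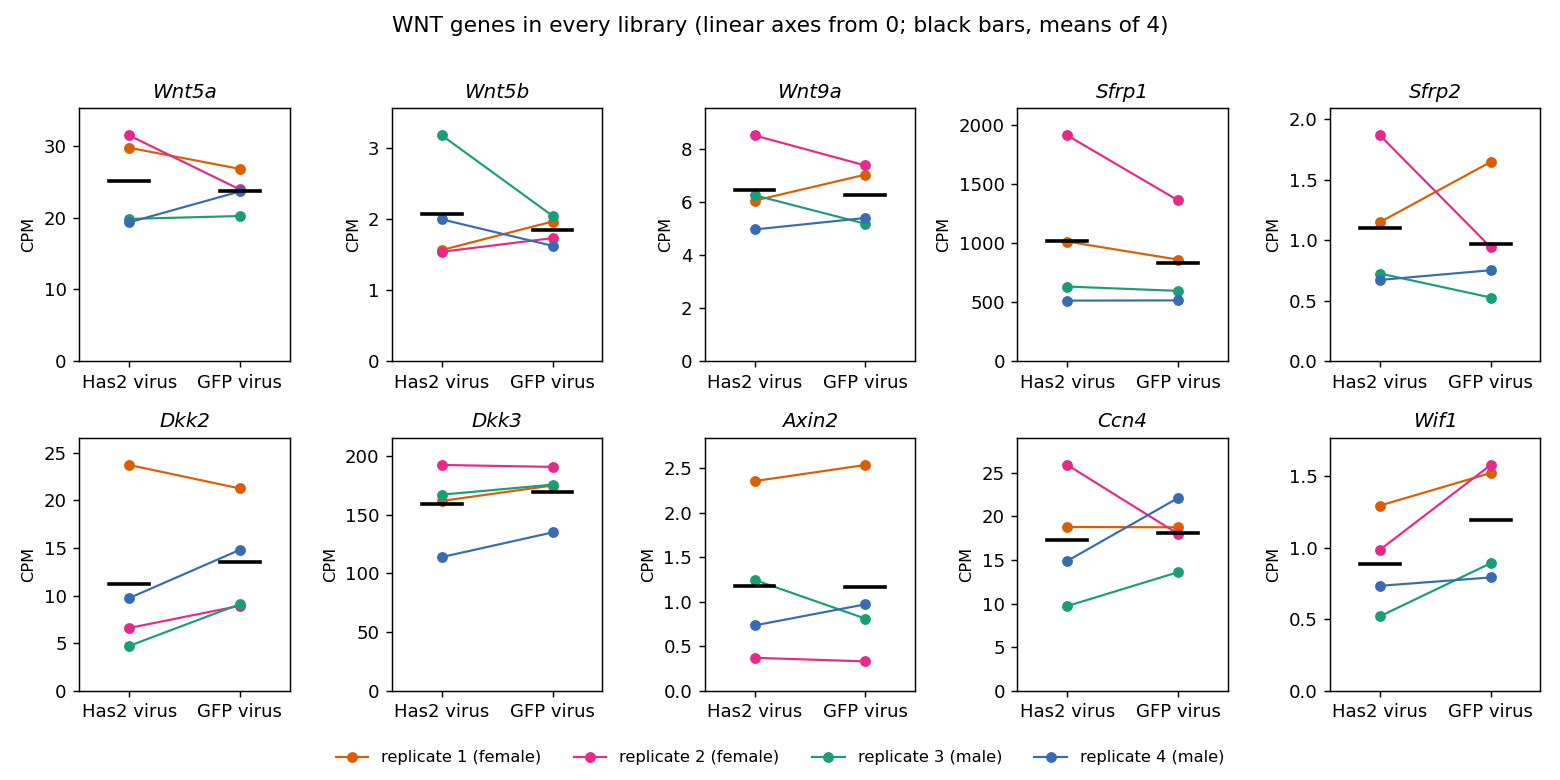
Expression of each gene in CPM (linear axes from 0) with the Has2 virus on the left and the GFP virus on the right, 1 line per replicate number and black bars at the means of 4 libraries. The ranges of the viruses overlap in every panel. Axin2 was highest in replicate 1 and lowest in replicate 2 with either virus.

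Neither target gene passed the test. Axin2, a scaffold of the beta-catenin destruction complex that beta-catenin itself induces, was measured at 2.35, 0.369, 1.24 and 0.733 CPM in Has2 replicates 1 to 4, against 2.54, 0.329, 0.810 and 0.970 CPM in GFP replicates 1 to 4. Replicate 1 was highest and replicate 2 lowest with either virus, and the fitted log2 fold change was 0.06 (SE 0.22; -0.48 to 0.59) on 15 to 131 counts per library. Ccn4, a matricellular protein first described as induced by Wnt1, stood at 18.8, 25.9, 9.72 and 14.9 CPM in the Has2 libraries, against 18.8, 18.01, 13.6 and 22.1 CPM in the GFP libraries (log2 fold change -0.13, SE 0.19). Replicate 1 was alike with either virus, replicate 2 was higher and replicates 3 and 4 were lower with the Has2 virus. The 250 bases before the Axin2 start are shown because this gene is the panel's readout of TCF/LEF activity (RefSeq, GRCm38.p6, chr11:108920099-108920348, plus strand).
Axin2: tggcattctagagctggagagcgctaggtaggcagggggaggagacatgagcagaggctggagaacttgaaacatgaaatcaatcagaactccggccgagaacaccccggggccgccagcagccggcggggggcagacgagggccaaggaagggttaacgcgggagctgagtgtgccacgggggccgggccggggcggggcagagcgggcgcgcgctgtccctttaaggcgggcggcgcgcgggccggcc
A search of both strands for the TCF/LEF cores CTTTGAT and CTTTGAA, which cannot overlap in the same place, found neither in this window, so no base is in capitals. Either core occurs in 7.48% of 32851 RefSeq windows of this length, and among the 6 genes of the panel with an entry it occurred in 1, upstream of 1 of 3 annotated Wnt5b starts. The share is per window and the panel's count per gene, so they are not like measures. Sites outside the 250 bases were not searched.

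For 10 of 10 genes the range of the preparations, averaged over both viruses on the log2 scale, was larger than the largest shift between viruses within a pair. It was 0.63 against 0.24 for Dkk3, 0.61 against 0.27 for Wnt9a and 2.81 against 0.62 for Axin2, and nearly equal for Wnt5b (0.643 against 0.636). The share of all genes with this order was not computed, so the count is no result about the panel. Axin2 was 7.71 times as high in the highest as in the lowest GFP library and 6.37 times in the Has2 libraries, with the same preparations at both ends. Averaged over both viruses, preparations spanned 7.01-fold for Axin2, 3.44-fold for Dkk2 and 3.14-fold for Sfrp1, against 1.41-fold for Wnt5a. An F test of the 4 preparations in the paired fit, added after these values had been seen, called Sfrp1 (edgeR adjusted p = 0.00615), Axin2 (0.0146) and Dkk2 (0.0207), 3 of 10 genes, where 8.88% of all genes were called. Without replicate 2 none of the 3 was called (edgeR adjusted p = 0.103 for Sfrp1, 0.140 for Axin2 and 0.114 for Dkk2), and without replicate 1 Sfrp1 alone was (0.115 for Axin2 and 0.0767 for Dkk2). Liver transcripts summed to 0.970 CPM in Has2 replicate 1 and 643 CPM in GFP replicate 1, and Axin2 was at 2.35 CPM in Has2 replicate 1 and 2.54 CPM in GFP replicate 1. The part of liver RNA in the level of Axin2 was not tested. With the trend of GC content and length removed, 7 of the 10 genes were called, where 25.9% of all genes were. Macrophage markers summed to 2093, 852, 1783 and 2304 CPM in Has2 replicates 1 to 4 and to 2200.5, 894, 1584 and 1984 CPM in GFP replicates 1 to 4. They were lowest in replicate 2, the preparation with the highest Sfrp1 and the lowest Axin2. Endothelial markers were also lowest in replicate 2 (31.0 CPM with the Has2 and 34.4 CPM with the GFP virus). Fibroblast markers were highest there (39649 CPM with the Has2 and 39004 CPM with the GFP virus). The part of any of these cell types in the differences between preparations was not tested.

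Male and female cultures were also compared with the GFP virus alone, 2 libraries each. Sfrp1 stood at 596 and 515 CPM in the male and 861 and 1364 CPM in the female GFP cultures, so that every female culture lay above every male one. The male over female log2 fold change was -0.997 (SE 0.26; edgeR adjusted p = 0.825), and 0 of 10 genes passed edgeR at this size, where 0.026% of all genes did. Sfrp1 alone had an unadjusted p under 0.05, as 4.24% of all genes did, and DESeq2 called Sfrp1 among 0.573% of all genes. Male values lay wholly below female values for 5 of the 10 genes (Wnt5a, Wnt9a, Sfrp1, Sfrp2 and Wif1), against 15.7% of all genes tested. The genes share the same libraries and are not independent, and sex cannot be told apart from the series of preparations. GFP replicate 1, which held the liver transcripts, is among the female libraries, and its part was not tested. Wnt5a was barely separated, at 23.6 CPM in GFP replicate 4 (male) and 23.9 CPM in GFP replicate 2 (female). Wif1 was at 0.891 and 0.791 CPM in males and 1.52 and 1.58 CPM in females (log2 fold change -0.87, SE 0.37). Sfrp2 was at 0.526 and 0.752 CPM in males and 1.65 and 0.942 CPM in females (-1.01, SE 0.46). In the Has2 libraries Sfrp1 was again lower in males (log2 fold change -1.35, SE 0.32), and 0 of the 10 genes were called there, where 6.86% of all genes were.

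The response to the Has2 virus differed between male and female pairs for 3 of the 10 genes, by the test of the difference itself in the paired fit (edgeR adjusted p under 0.05), where 29.5% of all genes were called, and 5 of 10 had an unadjusted p under 0.05, as 40.5% of all genes did. Both shares are near the background and are no result about the panel. Ccn4 fell in the male pairs (log2 fold change -0.53, SE 0.13, edgeR adjusted p = 0.0116) and had a value of 0.26 (SE 0.12) in the female pairs. The difference, male minus female, was -0.79 (SE 0.18; 95% interval -1.19 to -0.40; edgeR adjusted p = 0.00733). Dkk2 also fell in the male pairs (-0.77, SE 0.15, edgeR adjusted p = 0.0036) and was at -0.11 (SE 0.15) in the female pairs, a difference of -0.66 (SE 0.21, edgeR adjusted p = 0.0385). For Wnt5a the values were -0.16 (SE 0.11) in male and 0.27 (SE 0.10) in female pairs, a difference of -0.43 (SE 0.15, edgeR adjusted p = 0.0499). In the male pairs 24.9% of all genes were called, 19.2% as lower, against 2 of the 10, both lower. In the female pairs 7.23% were called, 4.83% as lower, and 0 of the 10 were, where Sfrp1 came nearest (0.36, SE 0.10, edgeR adjusted p = 0.0522).

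**Figure D3:**
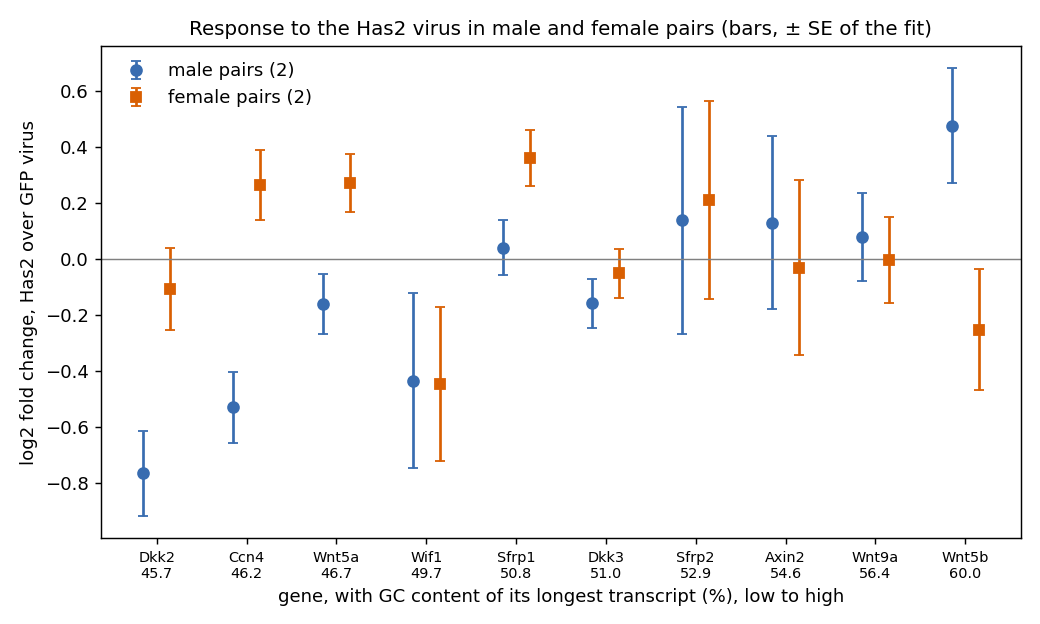
Log2 fold change of the Has2 over the GFP virus in male pairs (circles, left) and female pairs (squares, right), 2 pairs each, with bars of ± 1 SE of the fit and genes ordered by transcript GC content from 45.7% (Dkk2) to 60.0% (Wnt5b). Male values lie below female ones for Dkk2, Ccn4 and Wnt5a at the left, and above for Wnt5b at the right.

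These differences ran with the GC content of the transcripts, whose part in them was not tested beyond the removal of its trend. Wnt5b, with the highest GC content, had the largest positive difference between the sexes (0.73, SE 0.30, edgeR adjusted p = 0.0915), and the 3 genes with the lowest GC content were those called. Across the 10 genes, which share their libraries and are not independent, Spearman's rho between GC content and the difference was 0.90, and across 15123 genes tested it was 0.62. With a spline trend of GC content and transcript length removed from every library, 0 of the 10 genes were called, where 10.6% of all genes were. The differences were then -0.44 for Ccn4 (SE 0.16, edgeR adjusted p = 0.115), -0.42 for Dkk2 (SE 0.21, edgeR adjusted p = 0.258) and 0.01 for Wnt5a (SE 0.11, edgeR adjusted p = 0.975). At an unadjusted p under 0.05 were Sfrp1, Dkk3 and Ccn4, 3 of 10 against 25.6% of all genes, and Sfrp1 then had a difference of -0.37 (SE 0.11, edgeR adjusted p = 0.0662).

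**Figure D4:**
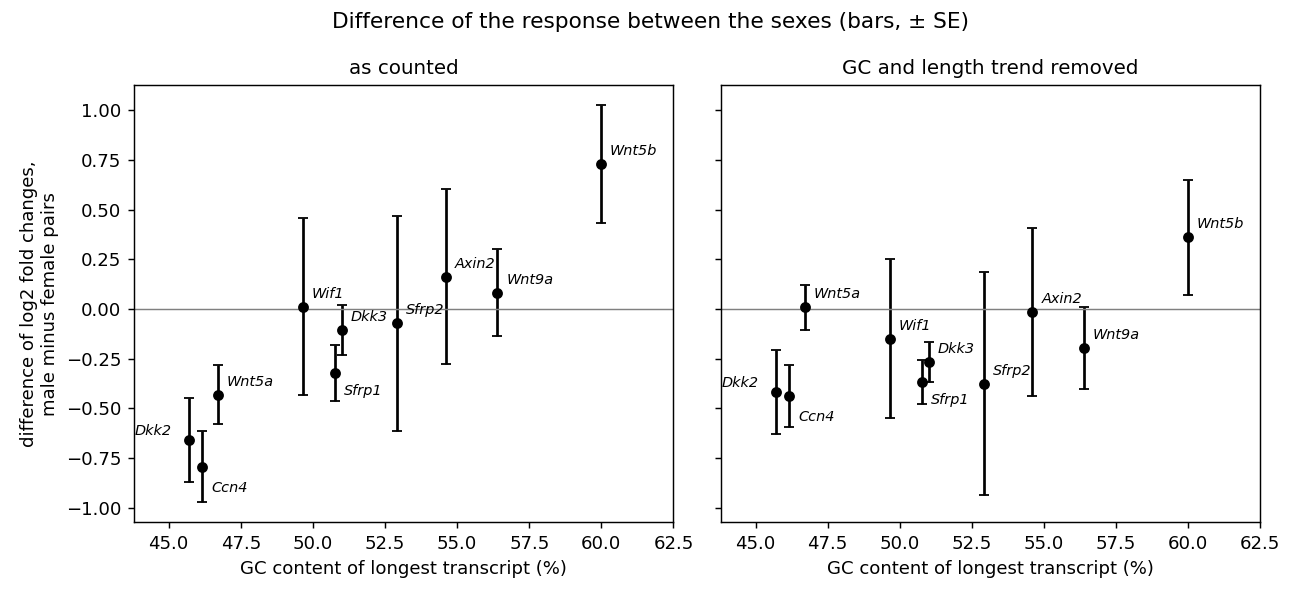
Difference of the log2 fold changes between male and female pairs (male minus female, ± SE) against the GC content of the longest transcript, as counted on the left and after removal of the spline trend on the right. Spearman's rho over the 10 genes, which are not independent, is 0.90 on the left and 0.55 on the right. Over 15123 genes tested it is 0.62 as counted and 0.03 after removal. Wnt5a lies at -0.43 as counted and at 0.01 after removal.

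The calls were made with the pairing, and those for Dkk2 and Wnt5a also rested on single preparations. The call for Wnt5a was also lost with RLE scaling in place of TMM. Without the replicate block none of the 10 genes was called for the difference between the sexes (edgeR adjusted p = 0.459 for Ccn4, 0.783 for Dkk2 and 0.424 for Wnt5a), nor was any other gene, while 13.3% of all genes had an unadjusted p under 0.05. On simulated counts the fit without the block called 0% of genes differing 1.5-fold or 2-fold and 16.7% of those differing 4-fold. Its lack of calls therefore decides nothing about these genes. DESeq2 called Ccn4 alone (adjusted p = 0.00492, against 0.0538 for Dkk2 and 0.102 for Wnt5a), where it called 23.6% of all genes, and limma-voom called Ccn4 and Dkk2, where it called 29.4%. Ccn4 was called when any 1 replicate number was left out, Dkk2 was not without replicate 1 (-0.31, edgeR adjusted p = 0.274) or replicate 3 (-0.49, 0.216), and Wnt5a was not without replicate 2 (-0.31, 0.150), 3 (-0.56, 0.069) or 4 (-0.27, 0.413). Has2 reached 3209 and 4860 CPM in the male and 9533 and 8406 CPM in the female Has2 libraries, and the part of that difference in the response of these genes was not tested.

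The rest of the pathway was described from lists of 106 genes by role, of which 82 were tested. Of these 82 genes 0 passed edgeR for the virus, as 0.0066% of all genes did, and 7 had an unadjusted p under 0.05, near the 7.49% of all genes that did. DESeq2 and limma-voom called 0 of the 82, where they called 0.403% and 0.0066% of all genes. Ligands had a median log2 fold change of 0.06 over 9 tested genes, receptors and co-receptors 0.04 over 17, antagonists -0.01 over 12, the cytoplasmic beta-catenin pathway 0.03 over 13, nuclear factors 0.12 over 12, beta-catenin targets 0.06 over 13, genes of planar polarity 0.06 over 10, and secretion factors and R-spondins -0.14 over 4, against -0.02 over all genes.

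The 7 genes are given as values, since none passed and their number is near the background. Tcf7l1, a TCF factor that mostly represses, was at a log2 fold change of 0.37 (SE 0.10), and Porcn, the acyltransferase that puts the lipid on WNT ligands, at 0.39 (SE 0.13). The signal transducer Dvl3 was at 0.37 (SE 0.12) and the formin Daam2 at 0.55 (SE 0.20). These 4 genes, picked by their p in the same paired test, were higher in 4 of 4 pairs, as were 9.16% of all genes. In the other direction lay Rspo3, an R-spondin that strengthens WNT signals by keeping receptors at the cell surface, at -1.42 (SE 0.48), and the ligand Wnt10b at -0.94 (SE 0.39), both expressed below 1 CPM on average. The edgeR adjusted p was 0.648 for each of these 6 genes and for Dkk2.

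For the difference between the sexes 18 of the 82 genes were called, 4 with a higher and 14 with a lower response in male pairs, against 11.5% and 18% of all genes. The smallest p was that of Apc, a scaffold of the destruction complex, at -1.07 in male and 0.43 in female pairs, followed in p by the co-receptor Lrp6 (-0.58 in male, 0.40 in female pairs) and Daam1 (-0.65 in male, 0.20 in female pairs). The kinase Gsk3b (-0.44 in male, 0.29 in female pairs) and Tnks2, a tankyrase that marks axins for degradation (-0.70 in male, 0.06 in female pairs), were called in the same direction. The ligand Wnt2 was called with a higher response in males (0.17 in male, -0.50 in female pairs), as was Pygo2 (0.12 in male, -0.26 in female pairs). The 14 lower genes had a median GC content of 46.1% (40.3% to 52.7%) and the 4 higher ones 55.8% (52.1% to 58.2%), against 53.1% for the 64 genes not called. Once that trend was taken out, 7 of the 82 genes were called, 1 higher and 6 lower in male pairs, where 10.6% of all genes were called. Apc (-0.69, edgeR adjusted p = 0.00437), Lrp6 (-0.39, 0.0372) and Daam1 (-0.41, 0.0275) were called with and without the trend. The other 4 were called after its removal alone. Of these Dvl3 (-0.55, edgeR adjusted p = 0.0221), Tcf7l1 (-0.46, 0.0417) and Tle2 (-0.52, 0.0387) were lower, and Btrc, a ubiquitin ligase subunit that recognises beta-catenin and is named here after its value was seen, was higher and had the smallest p of the 7 (0.91, edgeR adjusted p = 0.00319, against a difference of 0.04 as counted).

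The genes most like each member were taken as those with the highest Pearson correlation of log2 CPM over the 8 libraries, among 10304 genes with a mean of at least 5 CPM; the libraries share preparations, and the values are descriptions. Sfrp1 was closest to Prss35 (0.996) and Grb14 (0.991), and Wnt5a to Ankrd17 (0.992) and Hivep1 (0.992). Axin2 was closest to Ipmk (0.972) and Cdhr1 (0.960), Dkk2 to Noc3l (0.981) and Ddx21 (0.971), and Ccn4 to Tmcc1 (0.971) and Stxbp5 (0.971). Sfrp2 was closest to Col4a5 (0.984) and Kif13a (0.978), Wnt9a to Col3a1 (0.971) and Hdac4 (0.967), and Wnt5b to Dolk (0.969) and Dennd2a (0.968). Dkk3 was closest to Slc16a9 (0.964) and Scarb2 (0.957), and Wif1 to Tarsl2 (0.931) and Akr1e1 (0.929). Wnt5b, Sfrp2, Axin2 and Wif1 had means below the minimum of 5 CPM and could not be listed beside another gene.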

How the data were processed

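RNA of cultured mouse cardiac fibroblasts was sequenced from stranded mRNA libraries, per the labels' protocols. In 1 table the authors deposited unnormalized counts by Ensembl identifier for 8 libraries. Per the submitters' processing notes, HTSeq 0.10.0 and FastQC 0.10.1 were used with build GRCm39; for the strand setting, aligner and annotation release, nothing is given in the sources used here. Symbols, transcript lengths and GC content came from GENCODE M21, an older build, by Ensembl identifier (52081 of 55414 matched); GC and length were known for 99.8% of genes tested.

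Genes passing edgeR's default filter were tested with edgeR 4.0.16 (R 4.3.3; quasi-likelihood, TMM, Benjamini-Hochberg, adjusted p under 0.05) with replicate number as a block, since same-numbered libraries share a preparation identifier; their deviations from group means correlated at 0.58, 0.62, 0.53 and 0.44. Alternatives were no block, RLE or total scaling, scaling without Has2 counts, other filters, DESeq2 1.42.0, limma-voom 3.58.1, removal of a spline trend (5 degrees of freedom each for GC and log2 length) and left-out libraries. Genes named outside the panel are the 4 of smallest p per list and comparison. The members and lists were chosen with earlier results of these data known. Intervals cover the fit; the median SE of a log2 fold change was 0.14. On simulated counts over 14986 genes the paired test called 17.9% of genes changed 1.5-fold, 74.6% changed 2-fold and 66 of 66 changed 4-fold; for the difference between sexes over 15002 genes these shares were 41.8%, 76.1% and 86.4%. Of the calls in these simulations 6.57% were false for the virus and 8.72% for the difference between sexes. The simulated counts were drawn gene by gene from the fit, with no trend of GC content in the response. The real difference between the sexes held such a trend, so these shares may not hold for the data.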

Additional observations from a re-analysis of the deposited data

Results flagged for a closer look

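Wnt5a, Dkk2 and Ccn4 were picked out because their response to the Has2 virus differed between male and female pairs by the test of that difference. By this test 29.5% of all genes were called, so 3 of 10 is no result about the panel. Wnt5a lay at the threshold (edgeR adjusted p = 0.0499). With the trend of GC content and length removed, 0 of the 10 were called, where 10.6% of all genes were. The differences of log2 fold changes, male minus female, were -0.43 for Wnt5a, -0.66 for Dkk2 and -0.79 for Ccn4. These are the 3 genes of the panel with the lowest transcript GC content, and sex cannot be told apart from preparation series. No library of any of the 10 genes stood far enough from the other 3 of its group to be picked out.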

How the results depend on the processing

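For the virus, 0 of the 10 genes were called under every alternative run except the male pairs alone, where 2 were (Dkk2 and Ccn4). Fits without the replicate block changed no call of a panel gene for the virus and ended all 3 calls (0 genes called in all, 4470 with it) for the difference between the sexes. On simulated counts such fits called 11.9% of genes changed 2-fold for the virus and 0% for that difference, so they decide little. Genes called for the virus (1, Has2) numbered 0 with library totals (Has2 at 8.45, adjusted p = 0.0538), 118 without an expression filter, 61 with DESeq2, 2 with the GC and length trend removed, 1095 in female and 3765 in male pairs, and 0 to 1 with libraries left out, Has2 then being at 7.95 to 8.82 and not called without replicate 1 (adjusted p = 0.0844). With 1 pair left out, the log2 fold changes that turned in sign ran from -0.055 to 0.20 for Wnt5a, -0.065 to 0.30 for Wnt5b, -0.042 to 0.15 for Wnt9a, -0.11 to 0.49 for Sfrp2, -0.14 to 0.24 for Axin2 and -0.35 to 0.045 for Ccn4. With 1 library left out and no replicate block, those that turned were Wnt5a (-0.041), Wnt5b (-0.12), Wnt9a (-0.015 and -0.12), Sfrp1 (-0.21), Sfrp2 (-0.18), Dkk2 (0.050), Dkk3 (0.041), Axin2 (-0.55, -0.28, -0.11, -0.034 and -0.0046) and Ccn4 (0.0023, 0.078 and 0.13). Others that turned were Wnt9a (-0.035) and Axin2 (-0.018) with the trend removed, Wnt5b (-0.25), Wnt9a (-0.0026), Axin2 (-0.031) and Ccn4 (0.26) in female pairs, and Wnt5a (-0.16) in male pairs. For the difference between the sexes, trend removal left 1610 genes and 0 of the 10, with Wnt5a at 0.0087, Wnt9a at -0.19, Axin2 at -0.016 and Wif1 at -0.15. DESeq2 called 1 of the 10 (Ccn4), and RLE scaling and limma-voom each called 2 (Dkk2 and Ccn4). Wif1 was at -0.034 with library totals and -0.018 without a filter. With a pair left out 2353 to 4972 genes and 1 to 2 of the 10 were called, and Wnt9a ran from -0.11 to 0.31, Axin2 from -0.38 to 0.67, Sfrp2 from -0.83 to 0.66, Wif1 from -0.29 to 0.34 and Dkk3 from -0.19 to 0.0090. For males against females in GFP libraries (4 genes called) the Has2 libraries gave 1051 genes and Wnt5b at 0.74, library totals 2 genes with Wnt5b at 0.077 and Ccn4 at 0.059, no filter 7 genes, DESeq2 88 genes and 1 of the 10 (Sfrp1), and left-out libraries 0 to 1198 genes and 0 to 2 of the 10 (Sfrp1 without GFP replicate 1, Dkk2 and Axin2 without GFP replicate 2), with Wnt5b from -0.18 to 0.15, Dkk2 from -0.82 to 0.43, Axin2 from -1.50 to 1.44 and Ccn4 from -0.43 to 0.27. Between preparations (1346 genes, 3 of the 10) trend removal gave 3929 genes and 7 of the 10, and a left-out pair 32 to 1284 genes and 0 to 3 of the 10. For these changes the cause was not tested. Levels per length moved by less than their SD with other lengths or scaling. Counts under 200 per library for Wnt5b, Sfrp2, Axin2 and Wif1 limit what can be detected.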
